A study of Mus musculus with 12 samples.

Results

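The transcripts described here are those of 36 human genes of glycolysis and of the response to low oxygen, measured in tumors grown from human pancreatic cancer cells in the mouse pancreas. The genes were taken by Ensembl identifier from a list of glycolytic enzymes and targets of the hypoxia-inducible factor (HIF), which also gave their symbols. All 36 identifiers were present in the tables of both cell lines, which together held 30832 genes, 23445 of them shared. The study, by its title, is about a theta-class glutathione transferase in the resistance of pancreatic ductal adenocarcinoma to arsenic trioxide (ATO), an arsenic compound used against acute promyelocytic leukemia. Tumors came from AsPC-1 or BxPC-3 cells, both established human lines of this cancer, and the 12 libraries formed 4 groups of 3: AsPC-1 control, AsPC-1 ATO, BxPC-3 control and BxPC-3 ATO. All groups carried the genotype label WT. How much ATO was given and when, what the control mice received, and the strain, age and number of mice are not stated in the sources at hand. Each line stands for 1 donor's cancer. The labels name the mouse as organism, and every identifier in both tables was human.

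Glycolysis splits glucose to pyruvate in the cytosol, and lactate dehydrogenase converts pyruvate to lactate, which leaves the cell through monocarboxylate transporters. When oxygen is scarce, prolyl hydroxylases of the EGLN family no longer mark the HIF alpha subunits for breakdown, and HIF then switches on genes for glucose uptake, glycolysis, pH control, blood vessel growth and the turnover of mitochondria. Pancreatic ductal adenocarcinoma is known for poor blood supply and for a high use of glucose. HIF1A is regulated for the most part through the stability of its protein, which RNA levels do not report.

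Values are FPKM, reads per gene scaled by gene length and by a constant of the library, so that levels of different genes can be set side by side per length. Between 11219581 and 16177139 reads per library were recovered from the values in AsPC-1 and between 15386340 and 19306794 in BxPC-3. The library labelled BxPC-3 control 3 correlated at 0.946 to 0.973 with the AsPC-1 libraries and at 0.689 to 0.720 with the other BxPC-3 libraries, over 16600 genes. It was left out of the comparisons, which leaves 11 libraries and 2 BxPC-3 controls. Whether the replicates of a group were separate animals is not labelled, and a p-value here weighs a difference against the spread among libraries, which may be technical. Tests were made with limma on log2(FPKM + 1) over all genes of at least 1 FPKM in at least 3 libraries, a gene was called at an adjusted p under 0.05 over all genes tested, and differences are in log2 units with their standard error (SE). Adding 1 before taking logs understates the differences of low genes. The 2 tables may have been scaled separately, so differences between lines were also fitted on recovered reads. In whole tumors, fewer cells of a type and less RNA per cell cannot be told apart.

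**Figure D1:**
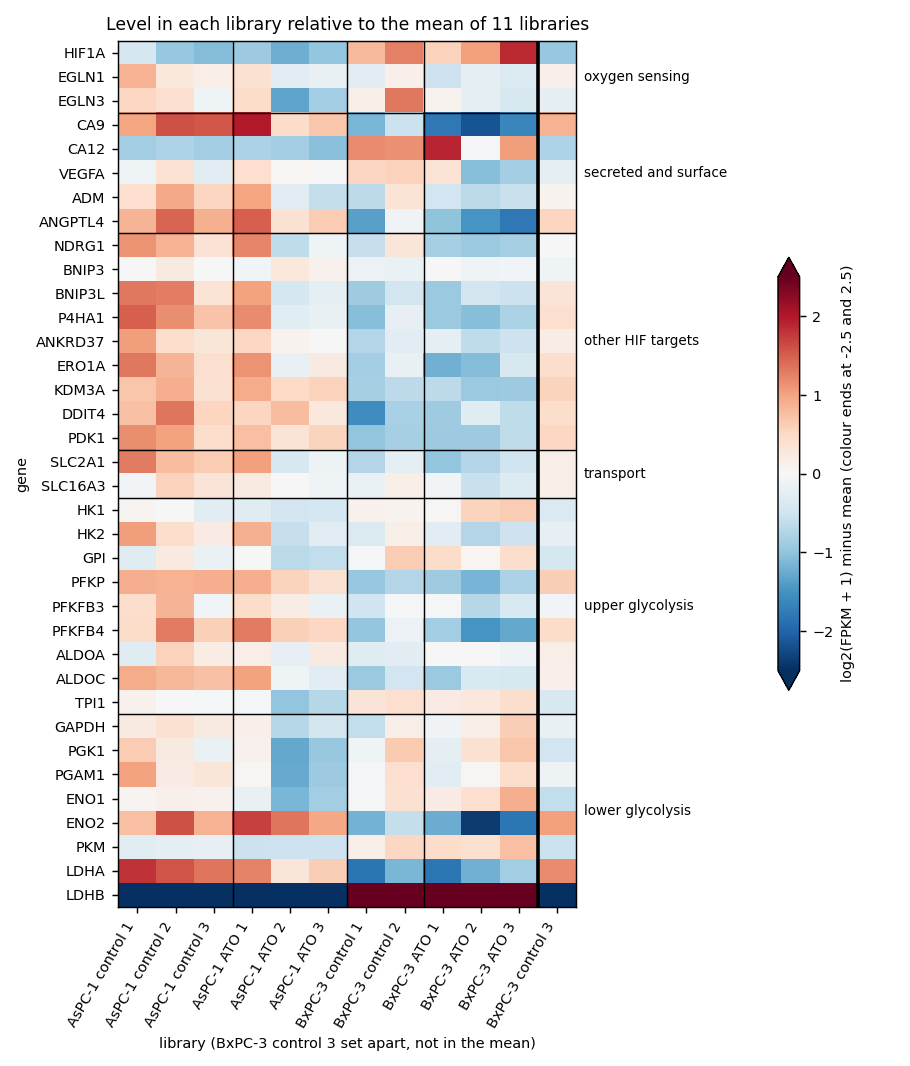
Level of each of the 36 genes (rows, grouped by role) in each library (columns), as log2(FPKM + 1) minus the mean of the 11 libraries; red is above that mean and blue below it, and BxPC-3 control 3 stands apart on the right. LDHB was near 0 in the 6 AsPC-1 libraries, and the column of BxPC-3 control 3 resembles the AsPC-1 columns.

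More members were called between the lines than between the treatments. In control tumors 15 of the 35 members tested were higher in AsPC-1, where 23.5% of all 16600 genes were, and 4 were lower, where 21.8% of all genes were. BNIP3 was under the filter. The higher members were BNIP3L, P4HA1, ANKRD37, ERO1A, KDM3A, DDIT4 and PDK1 among HIF targets of several functions, CA9 and ANGPTL4 among secreted and surface products, the glucose transporter SLC2A1, and PFKP, PFKFB4, ALDOC, ENO2 and LDHA among glycolytic genes. HIF1A, CA12, PKM and LDHB were lower in AsPC-1. LDHB passed the filter on low values only through the BxPC-3 libraries, so it was bound to differ. The median difference of the members was 0.67, beside 0.03 over all genes. The same 19 calls were made on recovered reads and after quantile normalization. Without BxPC-3 control 1, members called higher fell from 15 to 8, and genes called higher fell from 23.5% to 17.2% of all tested. With BxPC-3 control 3 put back into its labelled group, no member was called and no gene was, of 16745.

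In ATO tumors, 14 members were higher in AsPC-1, beside 35.2% of all genes, and 9 were lower, beside 24.8%. All 14 had also been higher in control tumors, and the 4 lower in control tumors were lower again. HK1, GPI, TPI1, PGK1 and ENO1, all enzymes of glycolysis, were called lower in AsPC-1 in ATO tumors and not in control tumors, and no member passed the test of that change, which is the line by treatment term given last. The median of all genes was 0.17 as deposited, -0.03 with quantile normalization and -0.05 with recovered reads, and both rescalings gave 11 higher and 11 lower members. Of all genes, 29.0% were then higher and 32.0% lower with quantile normalization, and 30.2% and 32.9% on recovered reads. ANKRD37, SLC2A1 and ALDOC were no longer called after either rescaling, and GAPDH and PGAM1 were called lower. With BxPC-3 control 3 put back, ANKRD37, SLC2A1, ALDOC and PGK1 were no longer called, and 51.5% of all genes tested were called. Over the 11 libraries together, all 6 AsPC-1 libraries lay above all 5 BxPC-3 libraries for 13 members, beside 23.7% of all genes, and all BxPC-3 libraries lay above all AsPC-1 libraries for HIF1A, CA12, TPI1, PKM and LDHB, beside 20.1%. The other 18 members overlapped.

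**Figure D2:**
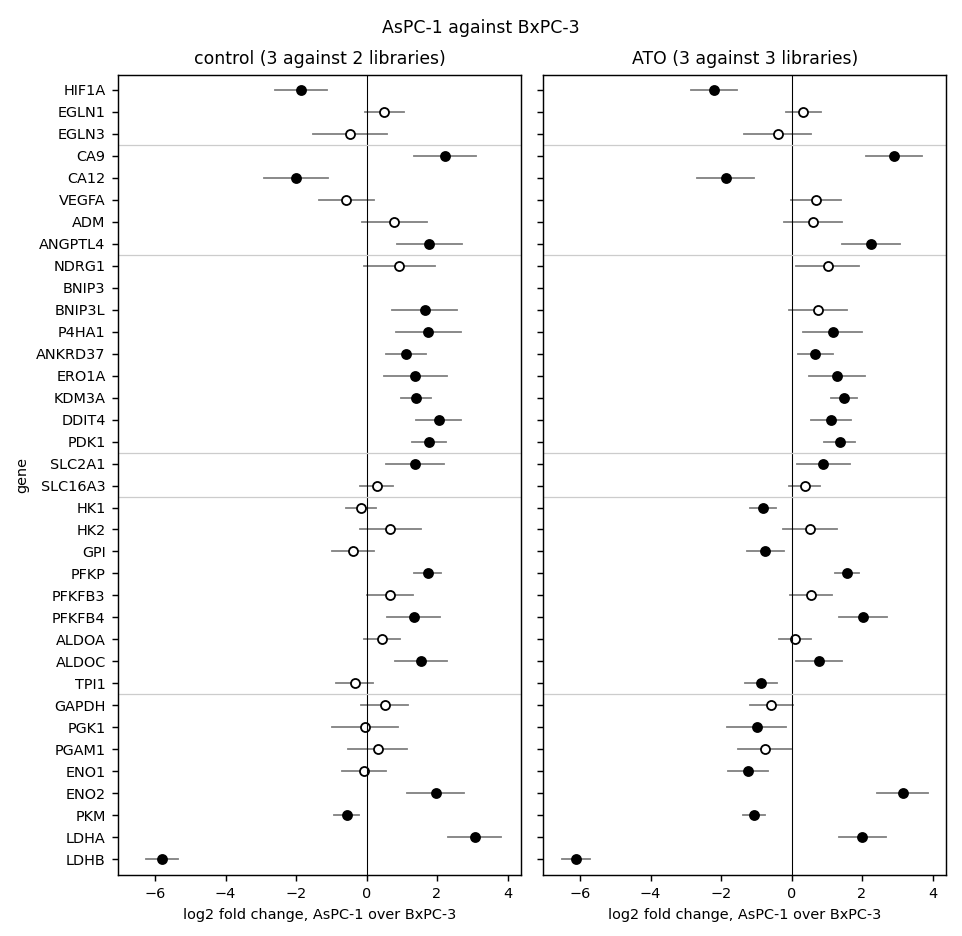
Difference between AsPC-1 and BxPC-3 in log2(FPKM + 1) for each tested member, in control tumors (left, 3 against 2 libraries) and ATO tumors (right, 3 against 3); points are fitted differences, bars are 95% confidence intervals, and filled points passed an adjusted p of 0.05. LDHB lies far to the left, where its position is set by the pseudocount. LDHA and CA9 lie farthest to the right in control tumors, and ENO2 and CA9 in ATO tumors.

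Among the genes that sense oxygen, HIF1A (ENSG00000100644), the oxygen-regulated subunit of HIF, was lower in AsPC-1. It stood at 12.9, 8.76 and 7.87 FPKM in AsPC-1 control tumors, 8.92, 7.01 and 8.51 in those given ATO, 32.0 and 43.9 in BxPC-3 control tumors and 26.7, 37.3 and 67.4 in those given ATO. Every BxPC-3 library was above every AsPC-1 library. The difference of AsPC-1 from BxPC-3 was -1.85 (SE 0.33, adjusted p = 0.00106) in control and -2.20 (SE 0.30, adjusted p = 0.000106) in ATO tumors. The prolyl hydroxylase EGLN1 (ENSG00000135766) stood at 15.3, 9.70 and 8.96 FPKM in AsPC-1 control tumors, 10.5, 6.37 and 6.83 in those given ATO, 6.42 and 8.64 in BxPC-3 control tumors and 5.17, 6.64 and 5.98 in those given ATO. Its levels in the lines overlapped and no difference was called, at 0.51 (95% confidence interval -0.05 to 1.06, adjusted p = 0.126) in control tumors. EGLN3 (ENSG00000129521), a hydroxylase that is itself a HIF target, stood at 16.3, 15.1 and 10.3 FPKM in AsPC-1 control tumors, 15.7, 3.89 and 5.63 in those given ATO, 12.4 and 29.4 in BxPC-3 control tumors and 12.0, 9.35 and 8.15 in those given ATO. BxPC-3 control 2 had the highest level and AsPC-1 ATO 2 and 3 the lowest. No difference of EGLN3 between lines was called in either treatment, at -0.46 (SE 0.48, adjusted p = 0.461) in control and -0.40 (SE 0.43, adjusted p = 0.444) in ATO tumors, and it passed as lower in AsPC-1 ATO tumors without AsPC-1 ATO 1 (adjusted p = 0.0386).

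Among secreted and surface products, the carbonic anhydrases CA9 and CA12, membrane enzymes that acidify the outside of the cell, differed between the lines in opposite directions. CA9 (ENSG00000107159), a widely used tissue marker of hypoxia, stood at 50.1, 76.0 and 73.8 FPKM in AsPC-1 control tumors, 100, 34.3 and 40.6 in those given ATO, 10.6 and 16.6 in BxPC-3 control tumors and 6.46, 4.75 and 7.25 in those given ATO. The lowest AsPC-1 library was at 34.3 FPKM and the highest BxPC-3 library at 16.6. The difference was 2.22 (SE 0.40, adjusted p = 0.00109) in control and 2.91 (SE 0.36, adjusted p = 5.39e-05) in ATO tumors. CA12 (ENSG00000074410) stood at 10.5, 11.3 and 10.6 FPKM in AsPC-1 control tumors, 11.2, 10.5 and 9.24 in those given ATO, 46.7 and 45.9 in BxPC-3 control tumors and 77.8, 19.5 and 42.6 in those given ATO. AsPC-1 libraries were within a narrow range of 9.24 to 11.3 FPKM and the BxPC-3 ATO libraries spread from 19.5 to 77.8. CA12 was lower in AsPC-1, at -2.0 (SE 0.40, adjusted p = 0.00225) in control and -1.87 (SE 0.36, adjusted p = 0.00118) in ATO tumors.

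ANGPTL4 (ENSG00000167772), a secreted inhibitor of lipoprotein lipase, stood at 17.1, 26.8 and 17.8 FPKM in AsPC-1 control tumors, 27.3, 12.1 and 14.7 in those given ATO, 2.96 and 8.55 in BxPC-3 control tumors and 4.05, 2.62 and 1.91 in those given ATO. The groups of the lines did not overlap, and the differences were 1.78 (SE 0.41, adjusted p = 0.00512) in control and 2.26 (SE 0.37, adjusted p = 0.000398) in ATO tumors. The call in control tumors was lost without BxPC-3 control 1 (adjusted p = 0.0740). VEGFA (ENSG00000112715), the main growth factor of blood vessels, stood at 25.5, 35.4 and 22.4 FPKM in AsPC-1 control tumors, 37.2, 28.5 and 27.7 in those given ATO, 40.3 and 41.6 in BxPC-3 control tumors and 35.1, 12.6 and 14.7 in those given ATO. All libraries but BxPC-3 ATO 2 and 3 lay between 22.4 and 41.6 FPKM. VEGFA was not called between lines, at -0.57 (SE 0.36, adjusted p = 0.222) in control and 0.69 (SE 0.32, adjusted p = 0.0846) in ATO tumors. It passed as lower in AsPC-1 control tumors without BxPC-3 ATO 1 (adjusted p = 0.0422) and as higher in AsPC-1 ATO tumors without BxPC-3 ATO 1 (adjusted p = 0.00106). ADM (ENSG00000148926), which encodes the vasodilator peptide adrenomedullin, ranged from 6.11 to 20.1 FPKM in AsPC-1 and from 5.68 to 12.6 in BxPC-3. It was not called, at 0.79 (SE 0.42, adjusted p = 0.148) in control tumors, but passed there without AsPC-1 ATO 1 (adjusted p = 0.0388).

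Of the 9 other HIF targets, 8 were tested. Of these, 7 were called higher in AsPC-1 control tumors, beside 23.5% of all genes, and 6 in AsPC-1 ATO tumors, beside 35.2%. The histone demethylase KDM3A (ENSG00000115548) stood at 15.9, 18.7 and 12.7 FPKM in AsPC-1 control tumors, 18.8, 13.7 and 14.5 in those given ATO, 4.86 and 5.65 in BxPC-3 control tumors and 5.68, 4.48 and 4.55 in those given ATO. Its 6 AsPC-1 values lay between 12.7 and 18.8 FPKM and its 5 BxPC-3 values between 4.48 and 5.68, the differences being 1.41 (SE 0.19, adjusted p = 0.000161) and 1.49 (SE 0.17, adjusted p = 3.23e-05). PDK1 (ENSG00000152256), the kinase that shuts pyruvate out of the mitochondrial cycle by inhibiting pyruvate dehydrogenase, stood at 9.15, 8.07 and 5.16 FPKM in AsPC-1 control tumors, 6.67, 4.77 and 5.65 in those given ATO, 1.29 and 1.56 in BxPC-3 control tumors and 1.41, 1.43 and 1.94 in those given ATO. The lines were apart by 1.77 (SE 0.22, adjusted p = 8.57e-05) in control and 1.36 (SE 0.20, adjusted p = 0.000159) in ATO tumors. DDIT4 (ENSG00000168209), an inhibitor of the growth kinase mTORC1, stood at 39.8, 61.4 and 34.9 FPKM in AsPC-1 control tumors, 34.5, 40.8 and 28.4 in those given ATO, 7.42 and 13.0 in BxPC-3 control tumors and 12.3, 18.9 and 14.9 in those given ATO. BxPC-3 control 1 had the lowest level and AsPC-1 control 2 the highest, and AsPC-1 exceeded BxPC-3 by 2.05 (SE 0.29, adjusted p = 0.000209) in control and 1.12 (SE 0.26, adjusted p = 0.00344) in ATO tumors.

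P4HA1 (ENSG00000122884), a subunit of the enzyme that hydroxylates collagen, stood at 84.7, 67.1 and 49.0 FPKM in AsPC-1 control tumors, 68.6, 24.0 and 25.9 in those given ATO, 13.6 and 25.6 in BxPC-3 control tumors and 15.0, 13.6 and 16.8 in those given ATO. AsPC-1 ATO 2, at 24.0 FPKM, was below BxPC-3 control 2, at 25.6. AsPC-1 was higher by 1.75 (SE 0.42, adjusted p = 0.00597) in control and 1.17 (SE 0.37, adjusted p = 0.02) in ATO tumors. The first call was lost without BxPC-3 control 1 (adjusted p = 0.0759) and the second without AsPC-1 ATO 1 or BxPC-3 ATO 2 (adjusted p = 0.0520 to 0.0583). ERO1A (ENSG00000197930), an oxidase of the endoplasmic reticulum that supports disulfide formation, stood at 86.8, 62.6 and 45.4 FPKM in AsPC-1 control tumors, 75.9, 29.8 and 40.0 in those given ATO, 18.6 and 29.8 in BxPC-3 control tumors and 14.2, 15.7 and 25.5 in those given ATO. Every AsPC-1 library was above every BxPC-3 library, but AsPC-1 ATO 2 and BxPC-3 control 2 were so close that both round to 29.8 FPKM. ERO1A was higher in AsPC-1 by 1.38 (SE 0.40, adjusted p = 0.0172) in control tumors, a call lost without AsPC-1 control 1 or BxPC-3 control 1 (adjusted p = 0.0535 to 0.148), and by 1.28 (SE 0.36, adjusted p = 0.0104) in ATO tumors.

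BNIP3L (ENSG00000104765), a receptor for the removal of mitochondria, stood at 141, 136 and 70.8 FPKM in AsPC-1 control tumors, 113, 41.0 and 46.9 in those given ATO, 29.7 and 40.3 in BxPC-3 control tumors and 28.8, 40.5 and 38.2 in those given ATO. AsPC-1 ATO 2 and 3 lay just above the highest BxPC-3 library. It was called higher in AsPC-1 control tumors at 1.65 (SE 0.42, adjusted p = 0.00828), a call lost without BxPC-3 control 1 (adjusted p = 0.0724), and not in ATO tumors at 0.75 (95% confidence interval -0.08 to 1.58, adjusted p = 0.107). Its paralog BNIP3 (ENSG00000176171) was low throughout, at 0.707, 1.01 and 0.742 FPKM in AsPC-1 control tumors, 0.635, 1.06 and 0.844 in those given ATO, 0.552 and 0.537 in BxPC-3 control tumors and 0.699, 0.594 and 0.633 in those given ATO, and did not reach 1 FPKM in 3 libraries. ANKRD37 (ENSG00000186352), an ankyrin repeat protein, stood at 5.45, 3.23 and 2.88 FPKM in AsPC-1 control tumors, 3.50, 2.34 and 2.15 in those given ATO, 0.875 and 1.56 in BxPC-3 control tumors and 1.64, 1.01 and 1.20 in those given ATO. The AsPC-1 values were all above the BxPC-3 values, by 1.11 (SE 0.26, adjusted p = 0.00476) in control and 0.67 (SE 0.23, adjusted p = 0.0255) in ATO tumors. The control call was lost without BxPC-3 control 1 (adjusted p = 0.0614), and the ATO call without AsPC-1 ATO 1, BxPC-3 ATO 2 or BxPC-3 ATO 3 (adjusted p = 0.0671 to 0.0897). NDRG1 (ENSG00000104419), a stress-responsive gene induced by hypoxia, stood at 70.6, 59.0 and 41.2 FPKM in AsPC-1 control tumors, 75.1, 20.1 and 29.5 in those given ATO, 21.1 and 39.2 in BxPC-3 control tumors and 17.4, 16.3 and 17.5 in those given ATO. The AsPC-1 controls and AsPC-1 ATO 1 were above all BxPC-3 libraries and AsPC-1 ATO 2 and 3 were not. No difference was called, at 0.92 (SE 0.46, adjusted p = 0.124) in control and 1.02 (SE 0.41, adjusted p = 0.0505) in ATO tumors. NDRG1 passed in control tumors without AsPC-1 ATO 1 (adjusted p = 0.0250) and in ATO tumors without AsPC-1 ATO 2 (adjusted p = 0.0114).

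Of the transporters, SLC2A1 (ENSG00000117394), which encodes the glucose transporter GLUT1, stood at 173, 120 and 110 FPKM in AsPC-1 control tumors, 143, 52.7 and 64.1 in those given ATO, 42.1 and 59.4 in BxPC-3 control tumors and 35.0, 41.7 and 49.3 in those given ATO. AsPC-1 control libraries and AsPC-1 ATO 1 were at 110 to 173 FPKM and every other library used was at 64.1 or lower. SLC2A1 was higher in AsPC-1 by 1.38 (SE 0.37, adjusted p = 0.0116) in control and 0.90 (SE 0.33, adjusted p = 0.0377) in ATO tumors. The first call was lost without BxPC-3 control 1 (adjusted p = 0.102) and the second without AsPC-1 ATO 1, BxPC-3 ATO 1 or BxPC-3 ATO 2 (adjusted p = 0.0793 to 0.112). SLC16A3 (ENSG00000141526), the lactate exporter MCT4, ranged from 7.10 to 12 FPKM in AsPC-1 and from 4.88 to 8.76 in BxPC-3, and it was not called in either treatment, at 0.28 (SE 0.22, adjusted p = 0.317) and 0.37 (SE 0.19, adjusted p = 0.124).

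In upper glycolysis, from glucose to triose phosphates, PFKP (ENSG00000067057), the platelet-type phosphofructokinase and a control point of the pathway, was higher in AsPC-1. It stood at 46.4, 45.5 and 46.4 FPKM in AsPC-1 control tumors, 46.4, 36.5 and 32.1 in those given ATO, 12.2 and 14.2 in BxPC-3 control tumors and 12.6, 10.3 and 13.6 in those given ATO. The AsPC-1 values were at least 32.1 FPKM and the BxPC-3 values at most 14.2, with differences of 1.73 (SE 0.17, adjusted p = 1.75e-05) in control and 1.57 (SE 0.15, adjusted p = 1.05e-05) in ATO tumors. PFKFB4 (ENSG00000114268), a bifunctional enzyme that makes and breaks down a strong activator of phosphofructokinase, stood at 5.31, 10.3 and 5.97 FPKM in AsPC-1 control tumors, 10.4, 5.95 and 5.64 in those given ATO, 1.36 and 3.18 in BxPC-3 control tumors and 1.52, 0.657 and 0.897 in those given ATO. All AsPC-1 libraries were above all BxPC-3 libraries, by 1.34 (SE 0.34, adjusted p = 0.00866) in control and 2.02 (SE 0.31, adjusted p = 0.000231) in ATO tumors. The call in control tumors was lost without BxPC-3 control 1 (adjusted p = 0.110). Its paralog PFKFB3 (ENSG00000170525) stood at 9.07, 12.4 and 6.09 FPKM in AsPC-1 control tumors, 9.30, 7.53 and 5.63 in those given ATO, 4.25 and 6.27 in BxPC-3 control tumors and 6.20, 3.54 and 4.73 in those given ATO. The lines overlapped and neither difference was called, at 0.67 (SE 0.30, adjusted p = 0.0886) and 0.55 (SE 0.27, adjusted p = 0.0982), though it passed in control tumors without AsPC-1 control 3 (adjusted p = 0.0299).

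Of the hexokinases, which trap glucose in the cell by phosphorylating it, HK1 (ENSG00000156515) stood at 13.4, 12.6 and 10.3 FPKM in AsPC-1 control tumors, 10.1, 8.73 and 9.03 in those given ATO, 13.7 and 13.5 in BxPC-3 control tumors and 13.0, 19.2 and 20.1 in those given ATO. The highest values were in BxPC-3 ATO 2 and 3 and the lowest in AsPC-1 ATO. HK1 was lower in AsPC-1 ATO tumors, at -0.82 (SE 0.17, adjusted p = 0.00174) and was not called in control tumors, at -0.16 (SE 0.19, adjusted p = 0.515). HK2 (ENSG00000159399), the inducible hexokinase, stood at 27.9, 17.8 and 15.1 FPKM in AsPC-1 control tumors, 24.7, 8.33 and 10.6 in those given ATO, 9.78 and 14.5 in BxPC-3 control tumors and 10.5, 7.43 and 8.68 in those given ATO. AsPC-1 control 1 and ATO 1 were highest and the lines overlapped, with no call at 0.67 (SE 0.39, adjusted p = 0.190) and 0.52 (SE 0.35, adjusted p = 0.221). Glucose phosphate isomerase, GPI (ENSG00000105220), stood at 16.6, 24.6 and 18.3 FPKM in AsPC-1 control tumors, 20.9, 12.6 and 13.3 in those given ATO, 20.3 and 32.8 in BxPC-3 control tumors and 28.8, 21.4 and 28.7 in those given ATO. It was lower in AsPC-1 ATO tumors, at -0.74 (SE 0.24, adjusted p = 0.0211), a call lost without AsPC-1 ATO 2, AsPC-1 ATO 3, BxPC-3 ATO 1 or BxPC-3 ATO 3 (adjusted p = 0.0590 to 0.0787), and not called in control tumors, at -0.39 (SE 0.27, adjusted p = 0.269).

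Aldolase, which cleaves fructose bisphosphate, was represented by ALDOA (ENSG00000149925), at 1.87, 4.26 and 3.05 FPKM in AsPC-1 control tumors, 2.97, 2.09 and 3.16 in those given ATO, 1.86 and 1.94 in BxPC-3 control tumors and 2.59, 2.59 and 2.28 in those given ATO, and ALDOC (ENSG00000109107), at 8.10, 7.51 and 6.88 FPKM in AsPC-1 control tumors, 8.53, 3.43 and 2.96 in those given ATO, 1.52 and 2.40 in BxPC-3 control tumors and 1.52, 2.66 and 2.60 in those given ATO. ALDOA was low beside the enzymes next to it in the pathway, and how reads from overlapping or near-identical loci were assigned is not given in the sources used here. It was not called, at 0.44 (SE 0.23, adjusted p = 0.146) and 0.09 (SE 0.21, adjusted p = 0.729), and passed as higher in AsPC-1 control tumors without AsPC-1 control 1 (adjusted p = 0.0181). ALDOC was higher in AsPC-1 by 1.53 (SE 0.33, adjusted p = 0.00352) in control and 0.78 (SE 0.30, adjusted p = 0.0438) in ATO tumors, and the second call was lost without AsPC-1 control 1, AsPC-1 control 2, AsPC-1 control 3, AsPC-1 ATO 1, BxPC-3 control 1, BxPC-3 control 2, BxPC-3 ATO 1, BxPC-3 ATO 2 or BxPC-3 ATO 3 (adjusted p = 0.0516 to 0.136), and with no filter on low values (adjusted p = 0.0578). Triose phosphate isomerase, TPI1 (ENSG00000111669), stood at 117, 109 and 107 FPKM in AsPC-1 control tumors, 106, 54.7 and 66.3 in those given ATO, 137 and 145 in BxPC-3 control tumors and 126, 130 and 147 in those given ATO. Every BxPC-3 library was above every AsPC-1 library. TPI1 was called lower in AsPC-1 ATO tumors, at -0.87 (SE 0.21, adjusted p = 0.00414), and not in control tumors, at -0.34 (SE 0.23, adjusted p = 0.257).

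In lower glycolysis, from triose phosphates to lactate, GAPDH (ENSG00000111640) was the most abundant member of the set, ranking 44 of 26820 genes in AsPC-1 and 31 of 27457 in BxPC-3 by mean FPKM. It stood at 449, 501 and 449 FPKM in AsPC-1 control tumors, 420, 235 and 279 in those given ATO, 251 and 426 in BxPC-3 control tumors and 361, 429 and 591 in those given ATO. The lines overlapped and GAPDH was not called, at 0.51 (SE 0.31, adjusted p = 0.205) and -0.58 (SE 0.27, adjusted p = 0.0912), though it passed as lower in AsPC-1 ATO tumors without AsPC-1 ATO 1 (adjusted p = 0.0237). Phosphoglycerate kinase, PGK1 (ENSG00000102144), which yields the first ATP of the pathway, stood at 77.0, 58.4 and 44.2 FPKM in AsPC-1 control tumors, 53.5, 19.9 and 25.2 in those given ATO, 46.1 and 78.5 in BxPC-3 control tumors and 42.1, 65.0 and 81.2 in those given ATO. AsPC-1 ATO 2 and 3 were the lowest libraries. PGK1 was lower in AsPC-1 ATO tumors, at -0.99 (SE 0.38, adjusted p = 0.0413), a call lost without AsPC-1 control 2, AsPC-1 ATO 2, AsPC-1 ATO 3, BxPC-3 ATO 2 or BxPC-3 ATO 3 (adjusted p = 0.0541 to 0.154) or with no filter on low values (adjusted p = 0.0521), and close to 0 in control tumors, at -0.04 (SE 0.42, adjusted p = 0.944). Phosphoglycerate mutase, PGAM1 (ENSG00000171314), stood at 81.7, 46.2 and 49.7 FPKM in AsPC-1 control tumors, 41.3, 16.1 and 20.8 in those given ATO, 39.2 and 53.9 in BxPC-3 control tumors and 33.0, 40.7 and 54.2 in those given ATO. The same libraries, AsPC-1 ATO 2 and 3, were lowest. PGAM1 was not called, at 0.31 (SE 0.38, adjusted p = 0.533) and -0.77 (SE 0.34, adjusted p = 0.0702). It passed as lower in AsPC-1 ATO tumors without AsPC-1 ATO 1 (adjusted p = 0.00675), and also after quantile normalization and on recovered reads.

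Of the enolases, which make phosphoenolpyruvate, ENO2 was higher in AsPC-1 in both treatments and ENO1 was lower in ATO tumors. ENO1 (ENSG00000074800), the ubiquitous form, stood at 117, 122 and 121 FPKM in AsPC-1 control tumors, 98.2, 50.3 and 60.9 in those given ATO, 110 and 147 in BxPC-3 control tumors and 129, 150 and 212 in those given ATO. It was lower in AsPC-1 ATO tumors, at -1.24 (SE 0.25, adjusted p = 0.00162) and near 0 in control tumors, at -0.08 (SE 0.28, adjusted p = 0.831). ENO2 (ENSG00000111674), best known as the enolase of neurons, stood at 38.5, 70.2 and 41.6 FPKM in AsPC-1 control tumors, 75.4, 58.1 and 44.9 in those given ATO, 9.34 and 14.6 in BxPC-3 control tumors and 8.92, 3.45 and 5.71 in those given ATO. The lowest AsPC-1 library was at 38.5 FPKM and the highest BxPC-3 library at 14.6. ENO2 was higher in AsPC-1 by 1.96 (SE 0.36, adjusted p = 0.00135) in control and 3.15 (SE 0.33, adjusted p = 1.57e-05) in ATO tumors. Pyruvate kinase, PKM (ENSG00000067225), which makes pyruvate and ATP, stood at 146, 148 and 151 FPKM in AsPC-1 control tumors, 120, 122 and 121 in those given ATO, 193 and 252 in BxPC-3 control tumors and 241, 232 and 293 in those given ATO. Every BxPC-3 library was above every AsPC-1 library. PKM was lower in AsPC-1, at -0.57 (SE 0.16, adjusted p = 0.0161) in control tumors, a call lost without BxPC-3 control 2 (adjusted p = 0.178), and -1.07 (SE 0.15, adjusted p = 0.000117) in ATO tumors.

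The subunits of lactate dehydrogenase differed between the lines in opposite directions, LDHA being higher in AsPC-1 and LDHB almost absent there. LDHA (ENSG00000134333), the subunit typical of muscle and of hypoxic tissue, stood at 505, 428 and 363 FPKM in AsPC-1 control tumors, 339, 177 and 219 in those given ATO, 39.6 and 64.2 in BxPC-3 control tumors and 40.5, 61.5 and 78.4 in those given ATO. LDHB (ENSG00000111716), the subunit typical of the heart, stood at 0.0210, 0.0938 and 0.106 FPKM in AsPC-1 control tumors, 0.0436, 0.0263 and 0.0269 in those given ATO, 57.7 and 60.6 in BxPC-3 control tumors and 50.3, 87.0 and 80.9 in those given ATO. AsPC-1 tumors had LDHA with almost no LDHB, and BxPC-3 tumors had both at similar levels per length. LDHB took 0.00416% to 0.0292% of the summed FPKM of LDHA and LDHB in AsPC-1 libraries and 48.6% to 59.3% in BxPC-3 libraries. In reads, LDHB had 14 over the 6 AsPC-1 libraries and 23080 over the 5 BxPC-3 libraries, which on the FPKM scale is a ratio of 1252 (95% exact interval 746 to 2291, counting error only). The fitted difference of LDHB is a description, since it moved with the pseudocount, from -5.81 to -8.45 in control and from -6.12 to -9.07 in ATO tumors when 0.1 replaced 1. LDHA was higher in AsPC-1 by 3.06 (SE 0.34, adjusted p = 3.77e-05) in control and 2.01 (SE 0.30, adjusted p = 0.000214) in ATO tumors. Summed FPKM of both subunits was 177 to 505 in AsPC-1 and 90.7 to 159 in BxPC-3. GAPDH, PGK1, PGAM1, ENO1, TPI1, PKM, LDHA and LDHB have near-identical processed copies elsewhere in the genome, and how the authors counted shared reads is not given in the sources used here.

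**Figure D3:**
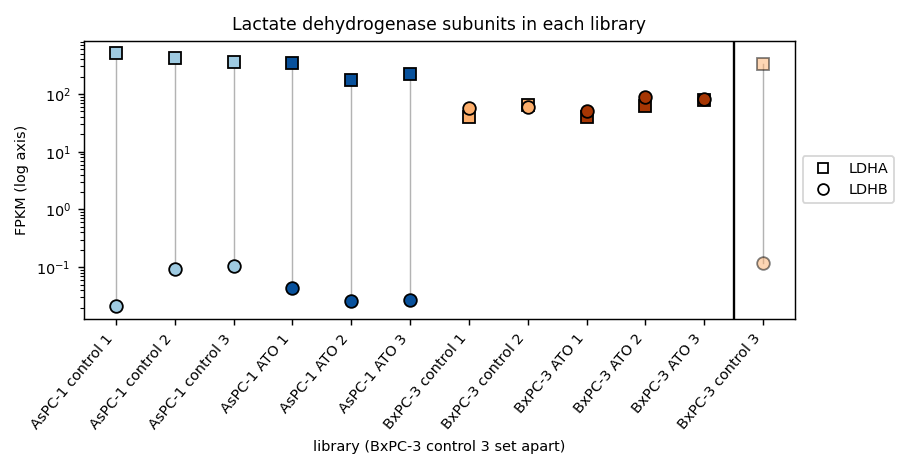
FPKM of LDHA (squares) and LDHB (circles) in each library on a log axis, with a line joining the subunits of a library; BxPC-3 control 3 stands apart on the right. LDHB was at or below 0.106 FPKM in AsPC-1 and at or above 50.3 FPKM in the 5 BxPC-3 libraries.

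To set related genes against each other within a library, 8 ratios were compared between the 6 AsPC-1 and 5 BxPC-3 libraries, control and ATO together, with a two-sided exact permutation test over 462 regroupings and Benjamini-Hochberg adjustment over the 8. The ratios were log2((FPKM + 1)/(FPKM + 1)), in which the added 1 weighs most where a gene is near or under 1 FPKM. All 8 passed, and 7 did with 0.1 added in place of 1. How many pairs of other genes would pass was not worked out. Of all genes, 23.7% lay higher in every AsPC-1 library than in every BxPC-3 library used, and 20.1% lay lower. The count of 8 therefore does not set these pairs apart from pairs of other genes. LDHA/LDHB was 8.24 ± 0.56 (SD, n = 6) in AsPC-1 and -0.26 ± 0.27 (SD, n = 5) in BxPC-3 (exact adjusted p = 0.00866), and the gap between the lines widened from 8.50 to 11.32 with 0.1 added. With LDHB almost absent in AsPC-1, this ratio was bound to differ, so its p is no support beyond the levels given above. CA9/CA12 was 2.36 ± 0.52 in AsPC-1 and -2.22 ± 0.75 in BxPC-3 (exact adjusted p = 0.00866), so the more abundant of these carbonic anhydrases was CA9 in every AsPC-1 library and CA12 in every BxPC-3 library used. ENO2/ENO1 was -0.75 ± 0.70 in AsPC-1 and -4.09 ± 0.88 in BxPC-3 (exact adjusted p = 0.00866). PFKFB4/PFKFB3 was -0.18 ± 0.29 in AsPC-1 and -1.30 ± 0.33 in BxPC-3 (exact adjusted p = 0.00866). For these 4 ratios the lines did not overlap.

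HK2/HK1 was 0.56 ± 0.48 in AsPC-1 and -0.60 ± 0.58 in BxPC-3 (exact adjusted p = 0.0139), with 1 BxPC-3 library, control 2, at 0.10 inside the AsPC-1 range. ALDOC/ALDOA was 0.84 ± 0.60 in AsPC-1 and -0.06 ± 0.29 in BxPC-3 (exact adjusted p = 0.0231). EGLN3/EGLN1 was lower in AsPC-1, at 0.10 ± 0.45 against 0.88 ± 0.52 (exact adjusted p = 0.0297), and so was BNIP3/BNIP3L, at -5.50 ± 0.84 against -4.49 ± 0.27 (exact adjusted p = 0.0433). The last 3 of these calls depended on which libraries entered, and that of BNIP3/BNIP3L also on the added constant, since with 0.1 it missed the threshold (exact adjusted p = 0.104). ALDOC/ALDOA missed the threshold without BxPC-3 control 1 or BxPC-3 ATO 1 (exact adjusted p = 0.0508 for each). EGLN3/EGLN1 missed it without AsPC-1 control 1, AsPC-1 control 3, BxPC-3 control 1, BxPC-3 control 2 or BxPC-3 ATO 1 (exact adjusted p = 0.0544 to 0.0653). BNIP3/BNIP3L missed it without any 1 library other than AsPC-1 ATO 2 or 3 (exact adjusted p = 0.0544 to 0.0952). With BxPC-3 control 3 put back, EGLN3/EGLN1 and BNIP3/BNIP3L missed it (exact adjusted p = 0.0544 and 0.0649) and the other ratios passed. Within a treatment, 3 against 2 libraries cannot give a p under 0.2 and 3 against 3 none under 0.1, so no ratio could pass there.

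**Figure D4:**
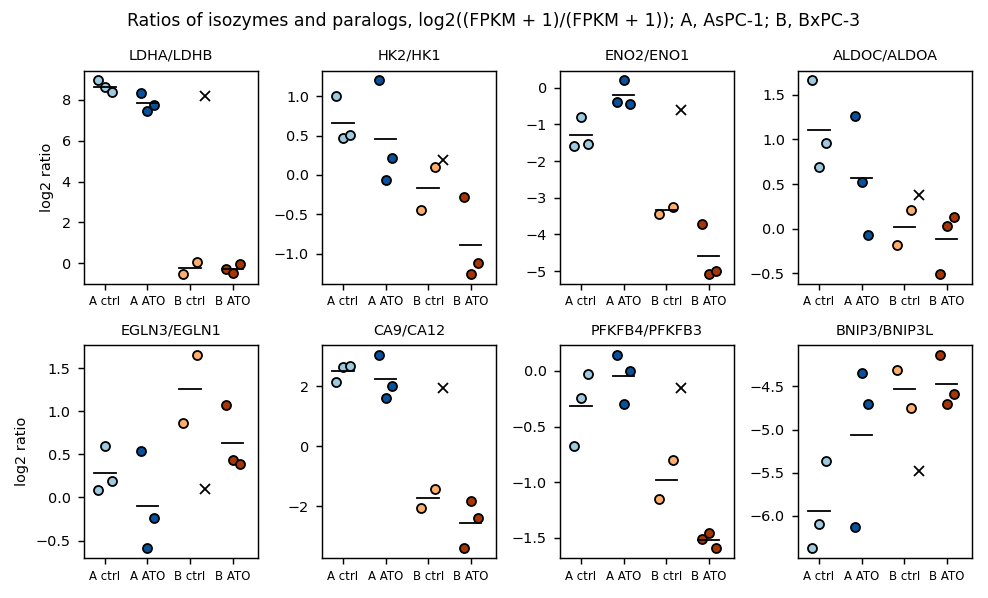
Each of the 8 log2 ratios by group, with points for libraries, a bar for the group mean, and a cross for BxPC-3 control 3, which is not in the mean (A, AsPC-1; B, BxPC-3; ctrl, control). LDHA/LDHB, CA9/CA12, ENO2/ENO1 and PFKFB4/PFKFB3 separated the lines in all 11 libraries, the first of them because LDHB was almost absent in AsPC-1.

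Whether ATO changed these genes was asked in each line. In AsPC-1 tumors no member passed, of 34 tested, and no gene passed of 15287 (0% called). BNIP3 and LDHB were under the filter. Lower glycolysis had the lowest values, with a median difference between ATO and control of -0.83 over its 7 tested genes, beside -0.37 over all tested members and 0.12 over all genes. On recovered reads these last medians were -0.57 and -0.04, and after quantile normalization -0.44 and -0.02, and no member passed with either. Unadjusted p was under 0.05 for 6 members, all with lower values in ATO, beside 6.02% of all genes lower at that level, and for no member with higher values, beside 15.0%. On recovered reads 18 members were lower at unadjusted p under 0.05, beside 14.3% of all genes.

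PGAM1 and ENO1 had the smallest adjusted p in AsPC-1. PGAM1 was at 46.2 to 81.7 FPKM in control and 16.1 to 41.3 in ATO, a difference of -1.22 (95% confidence interval -2.04 to -0.39, adjusted p = 0.183). ENO1 was at 117 to 122 FPKM in control and 50.3 to 98.2 in ATO, a difference of -0.83 (95% confidence interval -1.40 to -0.27, adjusted p = 0.183). LDHA came next, at 363 to 505 FPKM in control and 177 to 339 in ATO, a difference of -0.86 (95% confidence interval -1.46 to -0.25, adjusted p = 0.190). The group ranges were apart, with ATO lower, for HK1, TPI1, GAPDH, PGAM1, ENO1, PKM and LDHA, beside 8.10% of all genes, and with ATO higher for no member, beside 17.4%. Differences of the other 2 genes with unadjusted p under 0.05 and ranges apart were -0.60 (SE 0.24, adjusted p = 0.228) for TPI1 and -0.62 (SE 0.23, adjusted p = 0.216) for GAPDH. PGK1, whose ranges overlapped, had -0.94 (SE 0.36, adjusted p = 0.222). ENO2 had the highest value, 0.26 (SE 0.28, adjusted p = 0.573), and the ENO2/ENO1 ratio was -1.30 ± 0.44 (SD, n = 3) in control and -0.20 ± 0.35 (n = 3) in ATO. Its exact permutation p of 0.1 is the smallest that 3 against 3 libraries can give, and it became 0.4 when adjusted over the 8 ratios. LDHA/LDHB had the same values of p, at 8.64 ± 0.30 in control and 7.84 ± 0.46 in ATO. With LDHB almost absent in AsPC-1, that ratio followed LDHA alone and repeats its difference. The other ratios in AsPC-1 had an exact permutation p of 0.3 to 0.6. In BxPC-3 ENO2/ENO1 went the other way, from -3.34 ± 0.13 (n = 2) in control to -4.59 ± 0.77 (n = 3) in ATO. Its exact permutation p there was 0.2, or 0.64 adjusted.

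The ATO libraries of AsPC-1 differed among themselves. AsPC-1 ATO 1 lay below all 3 controls for 8 members, above them for 9 and among them for 17. AsPC-1 ATO 2 lay below all controls for 26 of 34 members and ATO 3 for 27, and both lay above all controls for 0. Over all genes, ATO 1, 2 and 3 were below all controls for 20.3%, 24.6% and 22.9% of genes and above them for 24.6%, 49.3% and 45.9%. Without ATO 1 the number of members lower at unadjusted p under 0.05 rose from 6 to 20, beside 10.4% of all genes, and no member passed the adjusted threshold. Without ATO 2 or ATO 3 it was 3, beside 1.85% and 2.40% of all genes. The 20 most abundant genes took 18.1% to 22.9% of the reads in AsPC-1 controls and 34.2%, 38.5% and 37.4% in ATO 1, 2 and 3, and recovered reads summed to 86.3% to 88.7% of what the library constant implies in controls and to 105% to 118% in ATO. The part of these shifts in the result was not tested.

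**Figure D5:**
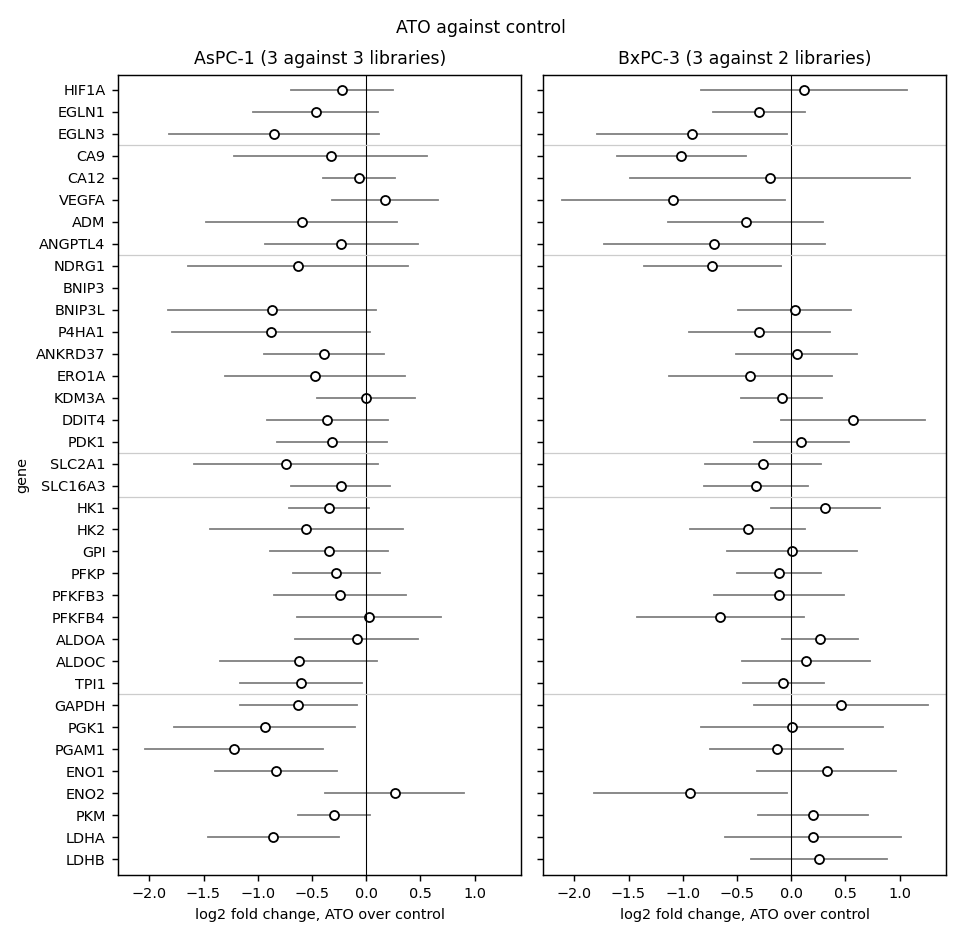
Difference between ATO and control in log2(FPKM + 1) for each tested member in AsPC-1 (left, 3 against 3 libraries) and BxPC-3 (right, 3 against 2); points are fitted differences, bars are 95% confidence intervals, and open points did not pass an adjusted p of 0.05. No member passed in either line, and the lowest values were PGAM1 at -1.22 in AsPC-1 and VEGFA at -1.09 in BxPC-3.

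In BxPC-3 tumors no member passed, of 35 tested, and no gene of 14633 (0% called). CA9, VEGFA, NDRG1, EGLN3 and ENO2 had unadjusted p under 0.05 with lower values in ATO, beside 2.58% of all genes, and no member had higher values at that level, beside 2.60%. The same 5 genes had ATO ranges below the control range, beside 9.34% of all genes, and ALDOA had one above it, beside 12.3%. CA9 was at 10.6 and 16.6 FPKM in control and 4.75 to 7.25 in ATO, a difference of -1.01 (95% confidence interval -1.61 to -0.42, adjusted p = 0.883). VEGFA was at 40.3 and 41.6 FPKM in control and 12.6 to 35.1 in ATO, where ATO 1 was near the controls, a difference of -1.09 (95% confidence interval -2.12 to -0.06, adjusted p = 0.883). NDRG1 was at 21.1 and 39.2 FPKM in control and 16.3 to 17.5 in ATO, a difference of -0.73 (SE 0.26, adjusted p = 0.883). EGLN3 and ENO2 differed by -0.91 (SE 0.36, adjusted p = 0.883) and -0.93 (SE 0.36, adjusted p = 0.883). DDIT4 had the highest value of the members, at 0.57 (SE 0.27, adjusted p = 0.883).

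In BxPC-3 the median difference between ATO and control was -0.71 over the 5 secreted and surface products, -0.29 over the 3 oxygen-sensing genes and -0.03 over the 8 other HIF targets tested, of which 4 were above 0 and 4 below. It was 0.20 over lower glycolysis and -0.07 over upper glycolysis, beside -0.11 over all members and -0.01 over all genes. LDHA differed by 0.20 (95% confidence interval -0.61 to 1.01, adjusted p = 0.921), LDHB by 0.26 (95% confidence interval -0.37 to 0.89, adjusted p = 0.894), PGAM1 by -0.13 (SE 0.25, adjusted p = 0.933) and ENO1 by 0.33 (SE 0.26, adjusted p = 0.886). The controls themselves differed, with 33 of 35 members higher in control 2 than in control 1, beside 43.4% of all genes, and 17 members highest in control 2 of all 5 libraries, beside 12.0%. Without control 2 the median of the members was 0.11 and 1 member was lower at unadjusted p under 0.05, beside 1.56% of all genes, and without control 1 the median was -0.27 and 8 members were, beside 1.03%. Without ATO 1, 6 members were lower, beside 14.4% of all genes, and 3 higher, beside 9.46%. Without ATO 2 or ATO 3, 1 member was lower, beside 1.49% and 1.26% of all genes, and 0 were higher. With BxPC-3 control 3 in its labelled group the 5 members with ranges apart became 3 and ALDOA no longer stood apart. The share of all genes with ranges apart was not worked out for that setting.

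The difference between lines in the ATO change was tested with the line by treatment term over 11 libraries. No member passed, of 35, and no gene of 16600 (0% called). At unadjusted p under 0.05 the change was lower in AsPC-1 than in BxPC-3 for DDIT4, HK1, GAPDH, ENO1, PKM and LDHA, beside 4.37% of all genes, and higher for VEGFA and ENO2, beside 11.2%. The lowest difference was -1.16 (95% confidence interval -2.0 to -0.32, adjusted p = 0.242) for ENO1 and the highest 1.26 (95% confidence interval 0.20 to 2.33, adjusted p = 0.281) for VEGFA. LDHA had -1.05 (SE 0.45, adjusted p = 0.304), GAPDH -1.09 (SE 0.41, adjusted p = 0.279), ENO2 1.19 (SE 0.49, adjusted p = 0.296) and DDIT4 -0.93 (SE 0.39, adjusted p = 0.298). The median was -1.0 over lower glycolysis, -0.34 over all members and 0.09 over all genes. VEGFA passed without BxPC-3 ATO 1 (adjusted p = 0.0295), where 422 genes passed as higher and 71 as lower.

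BxPC-3 control 3 had an AsPC-1 pattern in these genes as well. For all 18 members that separated the lines in the other 11 libraries, its level was nearer to the AsPC-1 mean than to the BxPC-3 mean, beside 98.9% of all genes that separated the lines. It lay inside the AsPC-1 range for 15 of them and inside the BxPC-3 range for 0. LDHB was at 0.118 FPKM, from 6 reads, and LDHA at 325 FPKM.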

How the data were processed

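RNA was sequenced from tumors of the lines AsPC-1 and BxPC-3, 12 libraries in all, prepared with a SMARTer mRNA kit per the labels' protocols. The authors deposited 1 table per line of FPKM values; the unit is not named in them and was worked out from the numbers, each a whole number of reads over a gene length, scaled by 1 constant per library. Builds named in the submitters' processing notes are GRCm38, mm10 and hg38. The aligner, the counting tool, its use of strand, the annotation and the handling of mouse reads are not stated in the sources at hand. Whole reads were recovered for 99.88% of genes (lengths up to 30000 bases, within 0.05 of a whole read), and 1 value had a space removed. Recovery and the test were tested on simulated data.

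Analyses used Python 3.11.15, numpy 2.4.6, pandas 2.3.3, scipy 1.17.1 and matplotlib 3.10.9, with R 4.3.3. Tests across genes used limma 3.58.1, with its trended empirical Bayes step, on log2(FPKM + 1). A gene was tested if 3 libraries of the fit had at least 1 FPKM, p-values were adjusted by Benjamini-Hochberg over all genes tested, and the threshold was 0.05. ATO was compared with control within each line, and the lines within each treatment and their interaction in 1 model of 4 group means over 11 libraries. The design had foreseen counts or normalized values. BxPC-3 control 3 was left out by the rule that defined the gene list. Ratios were tested by exact permutation. Alternatives were quantile normalization, no filter, a pseudocount of 0.1, a replicate block, voom on recovered reads, 1 model of 11 libraries, leaving out each library, and putting BxPC-3 control 3 back.

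The members, lists, tests and exclusions were chosen with earlier results of these data known. Every member is described. Values by library are given for members that passed in any comparison, had ATO and control ranges apart with a log2 difference of at least 0.5, or entered a ratio, and ranges for the rest. Symbols came from the gene list, since 0 identifiers of the files matched the 55450 of the mouse name table at hand. Other genes of the pathway, markers of ductal and stromal cells, gene positions and sequences were not analysed here.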

Additional observations from a re-analysis of the deposited data

Results flagged for a closer look

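The library labelled BxPC-3 control 3, which entered no comparison, had levels at least 2-fold above the higher of the other BxPC-3 controls for 7 members. The share of all genes at that level was not worked out. LDHA was at 325 FPKM there, beside 64.2 in the higher of the other controls, and PDK1 at 5.54, beside 1.56. ENO2 was at 46.9 FPKM, beside 14.6, and CA9 at 46.0, beside 16.6. PFKP was at 37.9 FPKM, beside 14.2, KDM3A at 14.3, beside 5.65, and DDIT4 at 32.3, beside 13.0. These 7 genes are among the 13 that lay higher in every AsPC-1 library than in the 5 other BxPC-3 libraries. Levels below the other controls were not flagged by this rule. Among such levels were LDHB at 0.118 FPKM, beside 57.7 and 60.6, HIF1A at 8.65, beside 32.0 and 43.9, and CA12 at 11.3, beside 46.7 and 45.9.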

How the results depend on the processing

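No called difference reversed. Of the alternatives for the main counts 302 stayed within 1.5 times and 25 did not, and of those for single genes and ratios 2609 kept their side of the threshold, 104 lost a call and 17 gained one. Replicate numbers were not taken to pair libraries, since the labels do not say that they mark pairs. Deviations of same-numbered control and ATO libraries correlated at 0.331, 0.200 and 0.0814 (AsPC-1) and 0.146 and 0.0591 (BxPC-3). Those of differently numbered libraries correlated at -0.334 to 0.214 (AsPC-1) and -0.149 to 0.149 (BxPC-3). With 2 BxPC-3 controls the deviations of 1 mirror those of the other, so the BxPC-3 range is symmetric by construction. With the replicate block, ATO against control in AsPC-1 called 903 genes higher (5.91%) and 290 lower (1.90%). Among the lower ones were 2 members, PGAM1 and LDHA (adjusted p = 0.0336 and 0.0498). In that comparison without the block, 19 genes were called higher on recovered reads and 1 after quantile normalization, with 0 members in both. Between ATO tumors the block lost the calls of ALDOC, PGK1 and SLC2A1. It left 12 members higher, beside 33.1% of all genes, and 8 lower, beside 23.2%. Putting BxPC-3 control 3 back left 0 genes and 0 members called higher or lower between control tumors. ATO and control ranges in BxPC-3 were then apart for 3 members lower and 0 higher. Without that library they were apart for 5 lower, beside 9.34% of all genes, and 1 higher, beside 12.3%. Between controls without it, 20 members had higher ranges in AsPC-1, beside 34.3% of all genes, and 7 had lower ranges, beside 32.2%. With it put back, 2 had lower ranges, and of the 20 with higher ranges all but ERO1A, KDM3A, PDK1, PFKFB4 and ENO2 kept them. Shares of all genes with ranges apart were not worked out for that setting. Ratios past the threshold numbered 0 in control libraries and 0 in ATO libraries alone, where none could pass.

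Leaving out 1 library gave 0 to 1 genes higher for ATO in AsPC-1, and 0 to 1 higher and 0 to 5 lower in BxPC-3, with 0 members. For the interaction it gave 0 to 422 genes higher, 0 to 71 lower and 0 to 1 members higher. Between control tumors it gave 8 to 17 members higher, and 3 to 5 lower, beside 2382 to 3755 of all genes lower. The 8 came without BxPC-3 control 1, where fewer of all genes were called higher too. Where both BxPC-3 controls stayed, 15 to 17 members were higher, beside 3383 to 4083 of all genes. Between ATO tumors leaving out 1 library gave 10 to 15 members higher, beside 4908 to 6139 of all genes, and 7 to 12 lower, beside 3618 to 4214. The member counts thus moved along with counts over all genes in part, and are not a property of the members alone. Ratios past the threshold numbered 5 to 8. Where 1 BxPC-3 control remained, it was assumed to vary like the other groups. Low counts limit LDHB in AsPC-1 (1 to 5 reads per library) and ANKRD37 and BNIP3, with as few as 43 and 50 reads.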
